A study of Mus musculus with 12 samples.

Results

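The RNA of C2C12 cells at 48 h of differentiation was compared with that of proliferating C2C12 myoblasts, over all genes, in 6 of the 12 libraries of a mouse RNA-sequencing series. C2C12 is an established mouse myoblast line that leaves the cell cycle and fuses into multinucleated myotubes when serum is withdrawn. The groups are defined by the labels: the 3 labelled control, taken 48 h after the switch to differentiation medium, and the 3 labelled proliferation, taken at 0 h, each named A, B and C. Control cells had been moved at 90 to 100% confluence from growth medium, DMEM with 10% fetal bovine serum, into DMEM with 2% horse serum. Proliferation cells were in the growth medium. All cells received 1% penicillin/streptomycin, were at passage 5 to 10, carried no stated genetic change and were labelled C57BL/6, although the line is known to derive from the C3H strain. The other 6 libraries were cells differentiated for 48 h with TNF or after Fbxl2 silencing. They entered the filter on low counts, the scaling and the estimate of the spread, but not the comparison itself. The labels do not say whether control cells received a non-targeting siRNA. Medium, serum and time all differ between the groups and cannot be told apart. Nothing in the labels says that the letters stand for separate cultures, so p-values measure only how these libraries vary, which may be technical.

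In a myoblast, basic helix-loop-helix factors of the MyoD family pair with E proteins on E-box sequences, act with MEF2 and serum response factor, and switch on the genes of the contractile apparatus. Id and Hes proteins and mitogen signalling hold that program back while the cells divide, and cyclin D with E2F drives the genes of DNA replication. On withdrawal of mitogens the cells stop dividing, express myogenin, fuse through myomaker and myomixer, and exchange many widely expressed isoforms for muscle forms.

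The labels name an mRNA kit and RNA integrity numbers of 9.7 to 10.0. Totals ran from 27184044 to 32917763 counts in control and from 26974009 to 30435066 in proliferation, and a floor of 3 counts stood at 0.0899 to 0.112 CPM (counts per 1000000 on TMM-scaled libraries) over the 6 libraries. On log2 CPM, principal component 1 carried 92% of the variance and separated the groups, with control at 58.4 to 61.7 and proliferation at -64.7 to -54.5. Component 2 carried 2.88% and set proliferation B (-20) apart from proliferation A (14.7) and C (6.69). Of 21232 gene symbols, 16327 had a count in the 6 libraries and 12736 passed a filter on low counts. edgeR's quasi-likelihood test called 9836 of them at a Benjamini-Hochberg adjusted p under 0.05, or 77.2%, with 4885 higher (38.4%) and 4951 lower (38.9%) in control. With so many calls, a share of about 2 in 5 in either direction is the background for every list below. The libraries of the groups did not overlap in 10090 tested genes, or 79.2%. That share is the background wherever groups are said to be apart or no library to cross. Counts in a list are of its tested genes: over all lists 1560 gene symbols were in the table and 1384 of them were tested. The filter was run over all 12 libraries, so some tested genes passed it only through the libraries outside the comparison. A gene that passed it through control or proliferation alone had to differ, and such genes are counted in the lists and size classes below. Values after ± are SDs over the 3 libraries of a group. Calls with a fitted change of at least 2-fold were fewer, at 1537 higher (12.1%) and 1051 lower (8.25%).

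The largest changes were mostly rises. At 8-fold or more, 378 genes were higher and 76 lower in control, and at 32-fold or more 126 were higher and 11 lower. Sarcomeric myosin heavy chains all lay far to the right of 0, whereas calcium store and antiviral members were spread widely. Most members of the ribosome, proteasome, replication and spindle lists lay left of it. In bulk RNA, fewer cells of a type and less RNA per cell cannot be told apart.

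**Figure D1:**
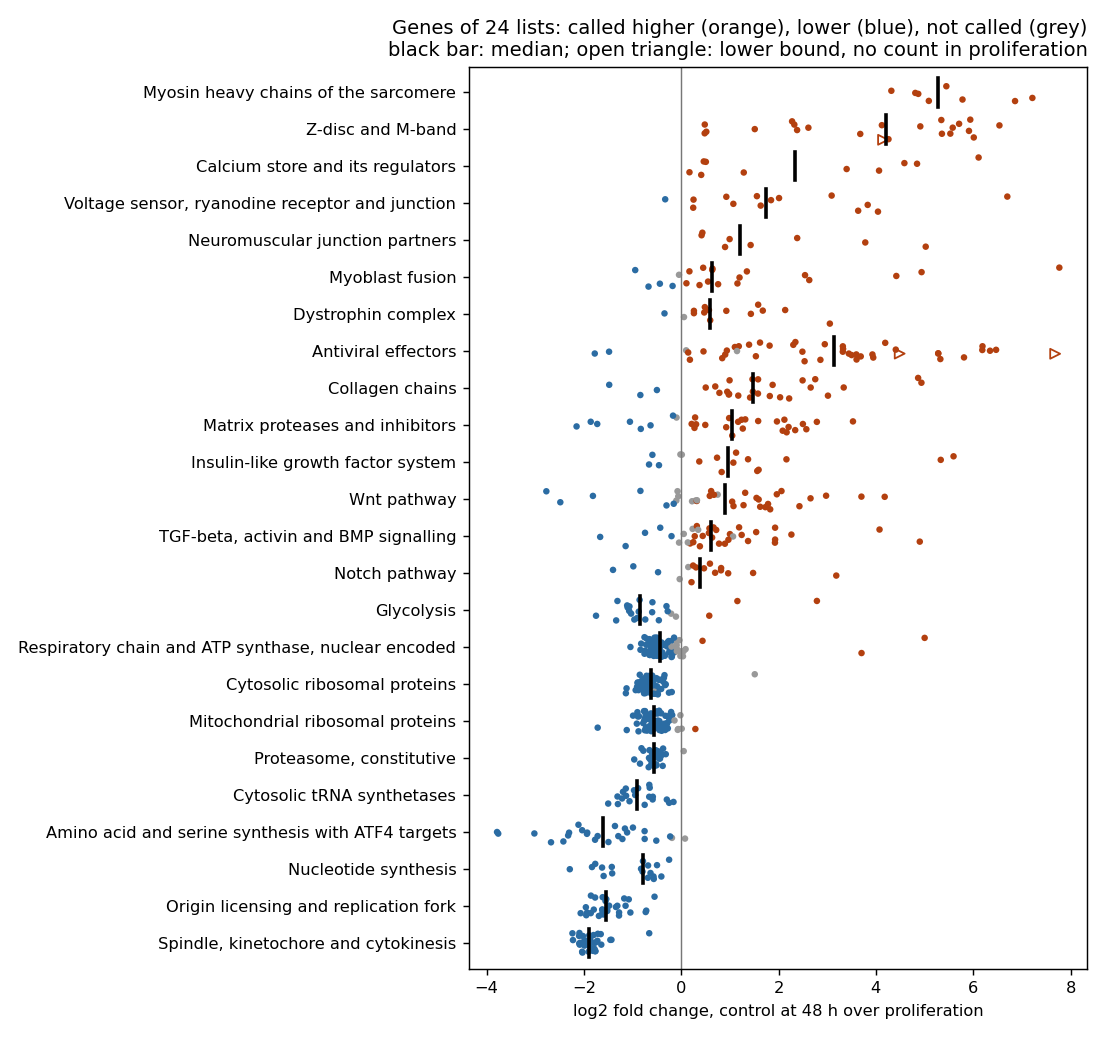
Log2 fold change of control at 48 h over proliferation (horizontal axis) for the tested genes of 24 lists, each point a gene, with the median of each list as a black bar and genes without a count in proliferation at their lower bound. The sarcomeric myosin heavy chains have a median of 5.27, the Z-disc and M-band list 4.20 and the spindle list -1.89. Genes with some counts in proliferation but a mean below the floor stand at their fitted values.

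Promoter sequences are shown first for 6 genes. They hold letter matches to motifs that the myogenic, cell cycle and interferon factors named here are known to bind. They are RefSeq promoter windows on GRCm38.p6, limited to the 250 bases before a transcription start and read 5′ to 3′ on the strand of the gene. Acta1 (chr8:123894776-123895025, minus strand) encodes skeletal alpha-actin and Casq2 (chr3:102086165-102086414, plus strand) the calcium store protein calsequestrin 2. Ccnb2 (chr9:70421555-70421804, minus strand) encodes cyclin B2 and Mcm6 (chr1:128359706-128359955, minus strand) a subunit of the replicative helicase. Ifit1 (chr19:34640639-34640888, plus strand) and Isg15 (chr4:156200819-156201068, minus strand) are interferon-stimulated. Capitals mark letter matches of E-boxes, a CArG box and a TATA box in Acta1, and of E-boxes and a MEF2 site in Casq2. In Ccnb2 they mark CCAAT boxes and the letters of a CHR element. That CHR match begins 167 bases before the start, upstream of the CCAAT boxes, and whether it is in use was not tested. The other matches are E2F sites in Mcm6 and interferon-stimulated response elements (ISRE) in Ifit1 and Isg15. In Mcm6 the first run of capitals is a pair of overlapping E2F letters, one on each strand, and in Isg15 the run holds overlapping ISRE matches.
Acta1: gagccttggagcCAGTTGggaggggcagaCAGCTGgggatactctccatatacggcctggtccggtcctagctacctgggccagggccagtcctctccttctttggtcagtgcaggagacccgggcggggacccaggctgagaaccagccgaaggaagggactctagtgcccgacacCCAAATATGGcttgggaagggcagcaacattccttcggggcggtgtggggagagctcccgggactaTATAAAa
Casq2: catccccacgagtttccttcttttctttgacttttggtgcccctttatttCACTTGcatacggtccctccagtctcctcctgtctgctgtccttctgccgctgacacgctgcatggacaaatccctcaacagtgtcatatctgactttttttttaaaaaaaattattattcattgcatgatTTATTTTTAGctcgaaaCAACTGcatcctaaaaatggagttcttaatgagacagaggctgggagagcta
Ccnb2: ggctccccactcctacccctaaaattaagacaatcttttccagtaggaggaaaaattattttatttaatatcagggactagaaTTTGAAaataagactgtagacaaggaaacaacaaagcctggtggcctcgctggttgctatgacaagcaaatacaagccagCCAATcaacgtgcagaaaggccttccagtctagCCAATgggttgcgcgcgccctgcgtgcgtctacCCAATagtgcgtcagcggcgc
Mcm6: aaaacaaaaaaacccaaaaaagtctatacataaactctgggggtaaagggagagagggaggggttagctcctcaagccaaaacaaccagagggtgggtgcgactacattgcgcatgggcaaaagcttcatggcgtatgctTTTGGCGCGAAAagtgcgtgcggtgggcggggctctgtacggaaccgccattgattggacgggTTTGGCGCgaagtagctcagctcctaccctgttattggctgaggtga
Ifit1: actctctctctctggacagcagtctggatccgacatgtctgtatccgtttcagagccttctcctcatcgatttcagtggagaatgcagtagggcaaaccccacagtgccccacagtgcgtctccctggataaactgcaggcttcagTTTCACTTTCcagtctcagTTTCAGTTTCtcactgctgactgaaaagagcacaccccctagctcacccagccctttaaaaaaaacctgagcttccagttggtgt
Isg15: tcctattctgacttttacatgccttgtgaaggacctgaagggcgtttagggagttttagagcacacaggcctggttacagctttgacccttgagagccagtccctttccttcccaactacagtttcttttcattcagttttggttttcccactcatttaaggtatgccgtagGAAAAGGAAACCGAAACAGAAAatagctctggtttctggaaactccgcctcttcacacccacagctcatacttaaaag

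Motifs were counted on both strands in 12396 such windows of 9658 tested genes. The E-box, CANNTG, was in 84.3% of 51 windows of 44 sarcomere genes and in 57.7% of all windows, and its form CAGCTG, which is counted in it, in 29.4% against 12.6%. The MEF2 consensus was in 21.6% against 1.68%, the CArG box of serum response factor in 11.8% against 1.23%, and the TATA box TATAAA in 21.6% against 6.66%. In 32 windows of 29 spindle genes the CHR element TTTGAA was in 37.5%, against 10.5% of all windows, and CCAAT in 78.1% against 35.5%. In 29 windows of 25 replication genes the E2F letters TTTCGCGC were in 13.8% against 0.476%, and TTTGGCGC in 10.3% against 0.734%. The ISRE letters, GAAA, any 2 bases and GAAA again, were in 30% of 40 windows of 35 antiviral genes, against 2.67%. These are matches of letters, not sites in use, and genes with several starts have several windows.

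Every sarcomeric myosin heavy chain tested rose, 8 of 8 tested and 10 listed. For members whose proliferation mean lay below the floor of 3 counts, Myh2 and Myh4 among them, passing the filter fixed the rise in advance. The motor proteins of the thick filament are encoded by embryonic Myh3, perinatal Myh8, slow Myh7 and the adult fast Myh1, Myh2 and Myh4. Myh1 had 67.1, 53.2 and 52.8 CPM in control libraries, against 1.97, 1.899 and 2.04 CPM in proliferation libraries (log2 fold change 4.87, SE 0.32, adjusted p = 5.96e-07). Myh7 had 33.9, 22.99 and 23.9 CPM in control libraries, against 0.888, 0.409 and 0.526 CPM in proliferation libraries (log2 fold change 5.45, SE 0.40, adjusted p = 9.33e-07). The groups lay far apart for both, with control A highest, and proliferation A was the highest proliferation library for Myh7. The other adult fast genes were low. Myh2 had 2.35 ± 0.405 CPM in control and 0.0782 ± 0.0747 CPM in proliferation, and Myh4 had 3.36 ± 0.466 CPM in control and 0.0563 ± 0.0368 CPM in proliferation. Both proliferation means lie below the floor of 3 counts per library, so no fold is given.

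Per kilobase of exon, Myh3 made up 88.5 ± 0.567% in control and 70.1 ± 0.806% in proliferation of all sarcomeric heavy chain reads (SD, n = 3). Myh1 made up 6.598 ± 0.0937% in control and 21.2 ± 2.95% in proliferation. The embryonic form thus took a larger and the fast form a smaller share at 48 h, although both levels rose. Among the fast troponins, which place calcium control on the thin filament, the calcium-binding Tnnc2 made up 44.2 ± 0.775% in control and 26.8 ± 3.35% in proliferation, and the inhibitory Tnni2 17.6 ± 0.942% in control and 36.7 ± 3.3% in proliferation. In the slow and cardiac set, Tnnc1 made up 60.5 ± 0.644% in control and 24.96 ± 2.402% in proliferation, and the cardiac and embryonic Tnnt2 11.2 ± 0.377% in control and 51.3 ± 3.89% in proliferation. Tnnt2 was present before differentiation, with 323, 291 and 287 CPM in control libraries, against 87.5, 96.6 and 95.1 CPM in proliferation libraries (log2 fold change 1.69, SE 0.08, adjusted p = 6.03e-11). All fast troponins tested rose, 3 of 3, as did 4 of 5 slow and cardiac ones. Of the light chains, Mylpf, the fast regulatory chain, reached 505 ± 42.8 RPKM in control and 12.2 ± 1.78 RPKM in proliferation. Embryonic Myl4 had 126, 99.4 and 98.3 CPM in control libraries, against 2.17, 1.56 and 1.74 CPM in proliferation libraries (log2 fold change 5.88, SE 0.25, adjusted p = 1.38e-08).

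**Figure D2:**
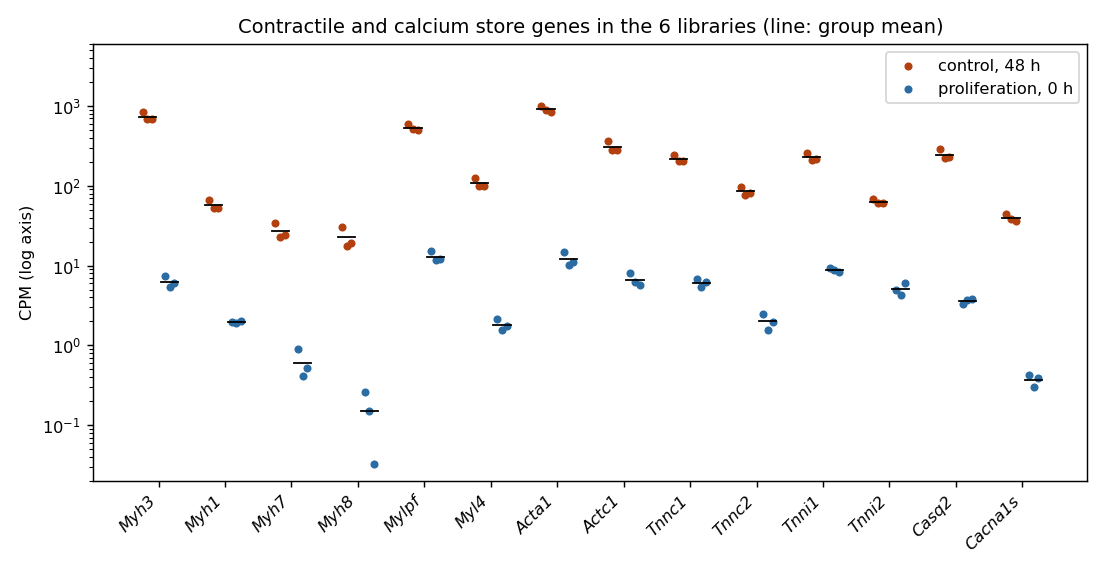
CPM on a log axis of 14 contractile and calcium store genes in the 3 control libraries (left, orange) and 3 proliferation libraries (right, blue) of each gene, with the group mean as a line. No group overlaps, and control lies more than 10-fold above proliferation in each gene shown.

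Acta1, the skeletal alpha-actin gene, had 996, 893 and 844 CPM in control libraries, against 14.9, 10.1 and 11.2 CPM in proliferation libraries (log2 fold change 6.24, SE 0.23, adjusted p = 5.77e-09). Actc1, the cardiac form used in embryonic muscle, had 362, 283 and 282 CPM in control libraries, against 8.03, 6.25 and 5.79 CPM in proliferation libraries (log2 fold change 5.53, SE 0.24, adjusted p = 2.9e-08). Control A was highest for both and no library crossed between the groups. The cytoplasmic actin Actb was lower in control, at 2343 ± 40.6 CPM in control and 3088 ± 74.9 CPM in proliferation (log2 fold change -0.40, SE 0.04, adjusted p = 7.25e-08), and 7 of 9 genes of cytoplasmic actin and its regulators fell while 2 rose. All 22 Z-disc and M-band genes tested rose, with a median log2 fold change of 4.20 when a member without a count in proliferation stood at its bound. The genes of giant scaffold proteins were uneven in proliferation. Ttn, the titin gene, had 179.9, 169 and 172 CPM in control libraries, against 54.3, 22.1 and 27.2 CPM in proliferation libraries (log2 fold change 2.32, SE 0.33, adjusted p = 0.000176). Neb, the nebulin gene, had 80.5, 63.3 and 70.5 CPM in control libraries, against 5.07, 2.31 and 2.27 CPM in proliferation libraries (log2 fold change 4.46, SE 0.40, adjusted p = 7.05e-06). For both, proliferation A was about 2 times as high as proliferation B or C, and still below every control library. Xirp2 was the only sarcomeric actin regulator called lower, at 4.97 ± 0.707 CPM in control and 7.4 ± 0.529 CPM in proliferation (log2 fold change -0.58, SE 0.11, adjusted p = 0.000107). Over all 62 sarcomere genes of these lists, 54 were tested, of which 52 were higher and 1 lower. Their counts were 0.847 ± 0.0556% of all counts in control and 0.177 ± 0.00308% in proliferation.

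Muscle cells use muscle forms of many enzymes and structural proteins beside widely expressed partners, and 40 such pairs were followed. Of 33 muscle forms tested, 28 were higher, 3 lower and 2 not called, with a median log2 fold change of 3.09. Of 37 partners tested, 9 were higher, 22 lower and 6 not called, with a median of -0.34. The muscle form rose while its partner fell in 13 of 31 pairs with both tested, and both rose in 7. Reads of near-identical partners could have been divided between them by the counting, so shares of close pairs such as Eno3 with Eno1 are uncertain.

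The size of the exchange differed between pairs. Per kilobase of exon, Ckm, the muscle creatine kinase, was 29.4 ± 1.28% of the pair in control and 0.934 ± 0.329% in proliferation, beside brain-type Ckb, which itself had a log2 fold change of 0.30. Mylpf was 64.2 ± 1.42% of the pair in control and 4.37 ± 0.692% in proliferation, beside Myl12a. Acta1 was 40.4 ± 1.802% of the pair in control and 0.676 ± 0.148% in proliferation, beside Actb. The kinase gene Srpk3 was 40.3 ± 2.31% of the pair in control and 0.6998 ± 0.232% in proliferation, beside Srpk1. Caveolin-3 (Cav3), a coat protein of muscle membrane pits, was 7.53 ± 1.09% of the pair in control and 0.0221 ± 0.0192% in proliferation, beside Cav1. The proliferation mean of Cav3, 0.0219 CPM, lay below the floor of 3 counts per library, so the size of its shift is uncertain. Among glycolytic enzymes, Pfkm was 76.3 ± 0.565% of the pair in control and 56.4 ± 0.604% in proliferation, beside Pfkp. Enolase did not shift in this way, since Eno3 was 66.6 ± 0.239% of the pair in control and 67.7 ± 0.635% in proliferation, beside Eno1, and both fell, by log2 fold changes of -1.03 and -0.97. Slc25a4, the muscle form of the mitochondrial ADP/ATP carrier, fell (log2 fold change -0.39) but less than Slc25a5 (-1.18), and was 46.4 ± 0.694% of the pair in control and 33.5 ± 0.802% in proliferation. Over all pairs followed, also those with an untested member, the muscle form was over 50% of its pair in 6 pairs at 48 h and in 5 in proliferation. Both counts include Cacna1s with Cacna1c and Scn4a with Scn8a, whose partners were below the filter.

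**Figure D3:**
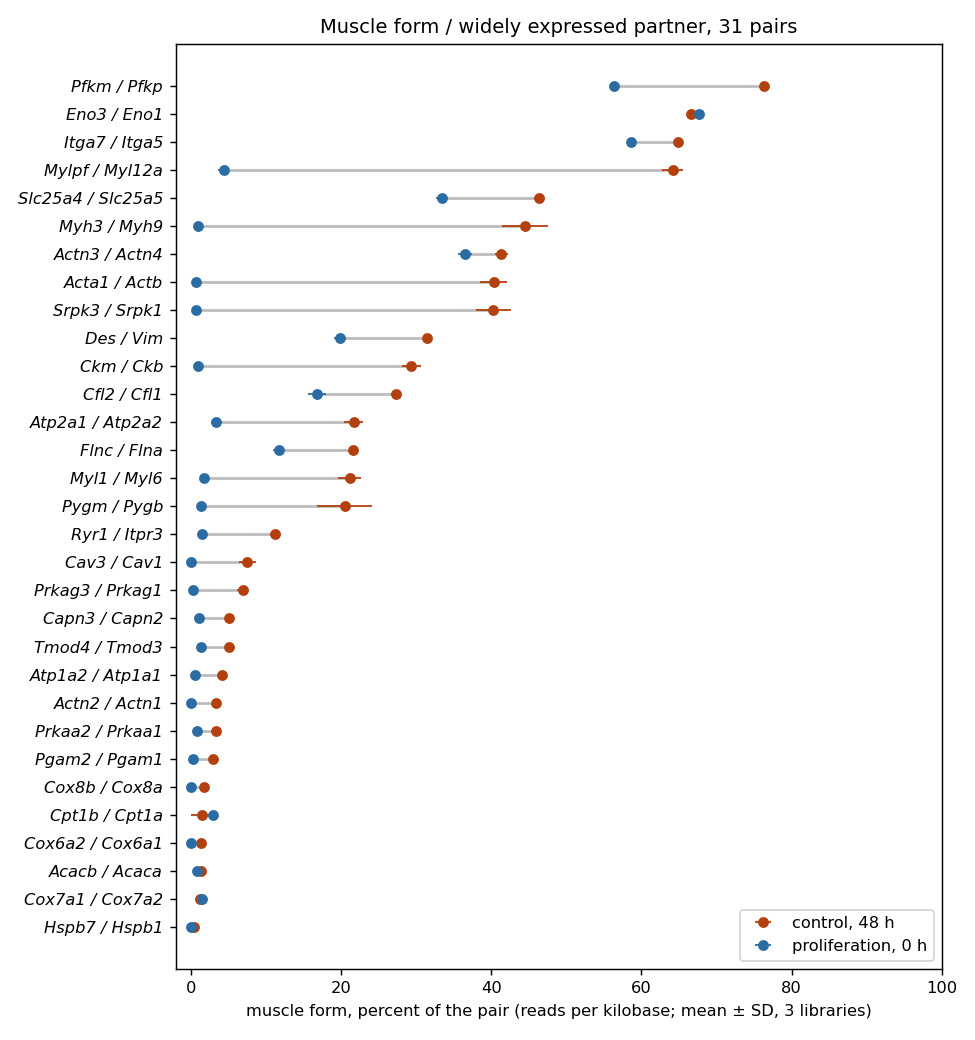
Share of the muscle form in 31 pairs of a muscle form and its widely expressed partner (percent of reads per kilobase, mean ± SD of 3 libraries), with control in orange and proliferation in blue joined by a grey line. Mylpf, Myh3, Acta1, Srpk3 and Ckm move furthest. Eno3, Cox7a1, Acacb and Hspb7 are among those that hardly move on this axis, although the level of Hspb7 rose (log2 fold change 4.26).

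The myogenic factors changed far less than the contractile genes, apart from myogenin. Of 8 genes of the MyoD family, its E protein partners and Pax7, 5 were higher and 3 lower. Myog, the factor of terminal differentiation, had 328, 289.7 and 289.7 CPM in control libraries, against 25.2, 21.4 and 20.98 CPM in proliferation libraries (log2 fold change 3.75, SE 0.19, adjusted p = 6.37e-08). Myf5, a determination factor, had 44.5, 43.5 and 44.6 CPM in control libraries, against 56.1, 54.1 and 48.7 CPM in proliferation libraries (log2 fold change -0.26, SE 0.05, adjusted p = 0.000167), a call lost when a trend of fold change with exon length was removed. Pax7, the satellite cell factor, had 17.7, 20.7 and 19.1 CPM in control libraries, against 9.21, 9.01 and 9.34 CPM in proliferation libraries (log2 fold change 1.06, SE 0.08, adjusted p = 6.04e-11), so each control library exceeded each proliferation library. Myf6, the late factor MRF4, stayed under 1 CPM in all 6 libraries.

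Partners and antagonists of these factors moved both ways. Mef2c, which acts with myogenin, had 30.98, 23.3 and 23.2 CPM in control libraries, against 5.62, 6.44 and 5.39 CPM in proliferation libraries (log2 fold change 2.16, SE 0.16, adjusted p = 5.73e-08). Mef2a had 312, 293 and 294 CPM in control libraries, against 145, 146 and 141 CPM in proliferation libraries (log2 fold change 1.06, SE 0.05, adjusted p = 2.51e-13). Of 15 Mef2, Tead, Vgll, Eya and Eya-partner homeobox genes, 11 rose and 1 fell. Msc, or MyoR, a repressor that occupies E-boxes in myoblasts, had 4.34, 4.01 and 4.24 CPM in control libraries, against 15.03, 17.5 and 16.1 CPM in proliferation libraries (log2 fold change -1.94, SE 0.09, adjusted p = 6.08e-14). Twist2, which blocks MyoD activity, had 6.47, 7.98 and 7.08 CPM in control libraries, against 20, 21.7 and 21.2 CPM in proliferation libraries (log2 fold change -1.55, SE 0.08, adjusted p = 5.43e-13). No library crossed between groups for either. Id1, Id2 and Id3, which sequester E proteins, fell by smaller log2 fold changes of -0.60, -0.66 and -0.24, the call of Id3 being lost with the length trend removed. Against these, Zeb1, a repressor of muscle genes in myoblasts, had 247, 241 and 243 CPM in control libraries, against 90.7, 81.2 and 86.3 CPM in proliferation libraries (log2 fold change 1.5, SE 0.05, adjusted p = 4.72e-16). Hes6, which favours differentiation, had a log2 fold change of 0.96. In the whole list of Id, Hes, Hey, Twist and Snail type repressors, 8 of 15 were higher and 6 lower.

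The machinery that couples the membrane to contraction rose strongly but unevenly among its parts. Cacna1s, the pore and voltage sensor of the muscle calcium channel, had 44.4, 38.3 and 35.8 CPM in control libraries, against 0.428, 0.298 and 0.395 CPM in proliferation libraries (log2 fold change 6.70, SE 0.34, adjusted p = 2.54e-08). Its partner in the reticulum membrane, the release channel Ryr1, had 61.1, 56.9 and 54.9 CPM in control libraries, against 7.89, 5.17 and 7.103 CPM in proliferation libraries (log2 fold change 3.09, SE 0.22, adjusted p = 7.96e-07). Ryr3 had 21.4, 20.9 and 18.7 CPM in control libraries, against 1.35, 1.19 and 1.15 CPM in proliferation libraries (log2 fold change 4.04, SE 0.14, adjusted p = 4.73e-16). Casq2, which buffers calcium inside the store, had 288, 225 and 227 CPM in control libraries, against 3.26, 3.69 and 3.78 CPM in proliferation libraries (log2 fold change 6.11, SE 0.28, adjusted p = 4.24e-08). The pump Atp2a1, which refills the store, had 93.5, 76.01 and 77.9 CPM in control libraries, against 9.38, 6.22 and 7.76 CPM in proliferation libraries (log2 fold change 3.40, SE 0.21, adjusted p = 2.33e-07). Groups were fully apart in each. Of 14 genes of the voltage sensor and junction, 13 were higher and 1 lower, and all 10 calcium store genes tested were higher. The muscle sodium channel Scn4a had 7.16 ± 1.22 CPM in control and 0.203 ± 0.109 CPM in proliferation (log2 fold change 5.10, SE 0.32, adjusted p = 1.03e-10, or a log2 fold change of 5.71 without all libraries of letter C). Among 11 ion channel genes 10 were higher and 1 lower. The lower member was Clcn1, the chloride channel of mature fibres (log2 fold change -1.25), which was under 1 CPM in all 6 libraries and was picked out after its values were seen.

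At the neuromuscular junction, where the nerve meets the fibre, all 8 partner genes tested and 3 of 4 acetylcholine receptor subunits rose. Lrp4, the agrin receptor, had 251, 247 and 241 CPM in control libraries, against 20.2, 14.96 and 18.4 CPM in proliferation libraries (log2 fold change 3.78, SE 0.12, adjusted p = 1.5e-11). Agrin itself (Agrn) had 170.2, 184 and 189.9 CPM in control libraries, against 38.2, 31.7 and 34.4 CPM in proliferation libraries (log2 fold change 2.38, SE 0.10, adjusted p = 1.58e-11). Musk, the kinase that Lrp4 activates, changed less, with 36.4, 33.3 and 35.2 CPM in control libraries, against 27.5, 24.4 and 25.8 CPM in proliferation libraries (log2 fold change 0.43, SE 0.06, adjusted p = 2.62e-06). The control libraries lay above all proliferation libraries in these 3 genes. Among the receptor subunits, Chrna1 was abundant in both groups at 862 ± 33.7 CPM in control and 587 ± 5.45 CPM in proliferation (log2 fold change 0.55, SE 0.04, adjusted p = 3.26e-10). Chrng, the fetal gamma subunit, had 86.7, 82.3 and 80.7 CPM in control libraries, against 11.4, 8.301 and 9.96 CPM in proliferation libraries (log2 fold change 3.07, SE 0.16, adjusted p = 1.1e-08). Per kilobase it made up 6.67 ± 0.0689% in control and 1.199 ± 0.165% in proliferation of the subunit reads. Chrnd was not called (86.1 ± 5.35 CPM in control and 91.98 ± 8.87 CPM in proliferation, adjusted p = 0.166), although it was called lower without proliferation B or without all libraries of letter B. The adult epsilon subunit Chrne had no count in any of the 6 libraries.

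Fusion genes ranged from strongly higher to lower. Of 21 tested, 16 were higher and 4 lower (median log2 fold change 0.64). Myomixer, listed as Gm7325, had 25.98, 23.5 and 23.2 CPM in control libraries, against 1.28, 1.04 and 1.05 CPM in proliferation libraries (log2 fold change 4.42, SE 0.13, adjusted p = 6.98e-17). Myomaker, listed as Tmem8c, had a log2 fold change of 4.94. Cadherin-15 (Cdh15) had a smaller rise, at 417 ± 9.66 CPM in control and 267 ± 17.6 CPM in proliferation (log2 fold change 0.64, SE 0.06, adjusted p = 1.19e-09). The junction protein gene Jam2 fell, with 168, 163 and 168 CPM in control libraries, against 302, 341 and 319 CPM in proliferation libraries (log2 fold change -0.95, SE 0.05, adjusted p = 1.12e-13). In the dystrophin complex, which ties the membrane to laminin, 12 of 14 genes were higher and 1 lower. Dmd itself was below the filter, at 0.186 ± 0.0505 CPM in control and 0.0343 ± 0.03298 CPM in proliferation. Its homologue utrophin (Utrn) had 252 ± 2.99 CPM in control and 180.2 ± 32.9 CPM in proliferation (log2 fold change 0.48) and was no longer called once all letter C libraries were left out.

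Genes of the dividing cell fell together. All 31 genes of origin licensing and the replication fork that were tested were lower (median log2 fold change -1.56), as were all 18 of nucleotide synthesis (-0.79) and all 35 of spindle, kinetochore and cytokinesis (-1.89). Among spindle genes the kinetochore gene Ndc80 fell most, at -2.24, and the checkpoint gene Bub3 least, at -0.66. Mcm6, whose promoter is printed above, had 104, 108 and 109.7 CPM in control libraries, against 231, 252 and 243 CPM in proliferation libraries (log2 fold change -1.17, SE 0.05, adjusted p = 3.25e-15). Tk1, thymidine kinase, had 21.3, 23.9 and 26.9 CPM in control libraries, against 114, 118 and 120.5 CPM in proliferation libraries (log2 fold change -2.29, SE 0.08, adjusted p = 6.24e-15). The groups were apart for both genes, and the control libraries still held Tk1 far above the floor of 3 counts.

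Cyclins and their regulators split by member. Of 9 cyclins, 8 were lower and 1 higher. Ccnd1, the cyclin that mitogens induce, had 59.3, 66.1 and 63.3 CPM in control libraries, against 260.1, 304 and 293 CPM in proliferation libraries (log2 fold change -2.18, SE 0.06, adjusted p = 1.82e-17). Ccnd3, the D cyclin known to persist in myotubes, had 282, 287 and 274 CPM in control libraries, against 135, 127 and 139.5 CPM in proliferation libraries (log2 fold change 1.07, SE 0.05, adjusted p = 6.4e-14). The groups were apart in opposite directions, and per kilobase Ccnd3 made up 27.8 ± 1.77% in control and 4.67 ± 0.468% in proliferation of all cyclin reads. Of 8 CDK inhibitors and Rb family genes 4 were higher and 3 lower. Cdkn1a (p21) had 522 ± 18.5 CPM in control and 251 ± 8.45 CPM in proliferation (log2 fold change 1.06). Cdkn1c (p57) had 6.56, 7.28 and 5.86 CPM in control libraries, against 1.28, 1.23 and 1.05 CPM in proliferation libraries (log2 fold change 2.46, SE 0.14, adjusted p = 1.97e-12). Cdkn1b (p27) was not called at 105 ± 4.17 CPM in control and 109.9 ± 2.701 CPM in proliferation (adjusted p = 0.157), and Cdkn2c (p18) and Cdkn2d (p19) were lower (log2 fold changes -0.81 and -1.53). The genes of the pocket proteins that restrain E2F moved in opposite directions. Rb1 had 120.2, 113 and 113 CPM in control libraries, against 73.5, 71.9 and 68.2 CPM in proliferation libraries (log2 fold change 0.70, SE 0.06, adjusted p = 7.46e-10). Rbl1 (p107) had 23.1, 26.3 and 25.5 CPM in control libraries, against 69.9, 85.5 and 76.2 CPM in proliferation libraries (log2 fold change -1.63, SE 0.07, adjusted p = 5.55e-14). Rbl2 (p130) had a log2 fold change of 0.33. Of 16 E2F and MuvB factors, 10 were lower and the rest not called, led by Mybl2 at -2.07 and Foxm1 at -1.54, both activators of mitotic genes.

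Variant histone genes mostly fell, and the replication-dependent ones that passed the filter were divided. Of 9 variant genes, whose transcripts carry a poly(A) tail, 8 were lower and 1 higher. H2afz had 185, 196 and 204 CPM in control libraries, against 697, 835 and 726 CPM in proliferation libraries (log2 fold change -1.95, SE 0.07, adjusted p = 1.19e-15). Cenpa, the centromere variant, had 19.5, 22.3 and 23.9 CPM in control libraries, against 88.1, 97.3 and 95.7 CPM in proliferation libraries (log2 fold change -2.10, SE 0.06, adjusted p = 7.45e-17). Of 32 replication-dependent histone genes with a row, 11 passed the filter, with 4 higher and 4 lower (median log2 fold change -0.48). The other 21 were below the filter, and most of them had a lower mean in control, although Hist2h2aa1 had a higher one. The even split therefore describes only the genes that passed, not the whole family. The lower members, named after their values were seen, were Hist1h1b, Hist1h1d, Hist1h1e and Hist1h2bk, each with a fitted fall of at least 2-fold, while no higher member reached 2-fold. They were at low levels, for example 0.1498, 0.0697 and 0.144 CPM in control libraries, against 1.61, 0.335 and 1.45 CPM in proliferation libraries for Hist1h1d (log2 fold change -3.19, SE 0.57, adjusted p = 7.87e-05), with proliferation B far below A and C. The call of Hist1h1e was lost without all libraries of letter A or of letter C. Their transcripts normally lack a poly(A) tail, and the labels name an mRNA kit. The linker histone Hist1h1c had 57.4, 59.4 and 59.3 CPM in control libraries, against 50.7, 43.9 and 45.2 CPM in proliferation libraries (log2 fold change 0.33, SE 0.06, adjusted p = 4.94e-05).

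Most genes of glycolysis fell at 48 h. Of 23 genes 18 were lower and 3 higher (median log2 fold change -0.86). Slc2a1, the widespread glucose transporter GLUT1, had 64.03, 67.8 and 65.3 CPM in control libraries, against 218, 211 and 234 CPM in proliferation libraries (log2 fold change -1.75, SE 0.05, adjusted p = 1.98e-17). Ldha, lactate dehydrogenase A, had 429, 436 and 441 CPM in control libraries, against 1019, 1150 and 1131 CPM in proliferation libraries (log2 fold change -1.34, SE 0.06, adjusted p = 3.93e-14). Pkm, pyruvate kinase, had 1320, 1401 and 1401 CPM in control libraries, against 2976, 2804 and 3129 CPM in proliferation libraries (log2 fold change -1.11, SE 0.06, adjusted p = 1.93e-13). Every control library lay below every proliferation library in these 3 genes. The exceptions included the muscle forms Pfkm (0.57) and Pgam2, which was low at 5.52 ± 0.6699 CPM in control and 0.799 ± 0.1003 CPM in proliferation (log2 fold change 2.79, SE 0.18, adjusted p = 8.84e-12). Of glycogen genes, muscle phosphorylase Pygm had 18.8, 14.9 and 13.8 CPM in control libraries, against 1.05, 0.707 and 0.592 CPM in proliferation libraries (log2 fold change 4.33, SE 0.22, adjusted p = 5.93e-11). The list had 6 of 17 higher and 6 lower. In the citric acid cycle 21 of 26 genes were lower and 2 higher, the higher pair being Pdk2 (1.48) and Pdk4 (0.57), kinases that switch off pyruvate dehydrogenase.

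Respiratory chain subunits moved in opposite directions according to the genome that encodes them. Of 74 nuclear genes 58 were lower and 3 higher (median log2 fold change -0.43). Of 13 mitochondrially encoded genes 12 were higher and 1 lower, with a median of 1.45. They took 1.72 ± 0.0155% of counts in control and 0.732 ± 0.0155% in proliferation. mt-Co1, a core subunit of cytochrome oxidase, had 5129, 5188 and 5202 CPM in control libraries, against 1667, 1405 and 1533 CPM in proliferation libraries (log2 fold change 1.75, SE 0.06, adjusted p = 8.49e-16). Atp5b, a nuclear subunit of ATP synthase, had 1309, 1278 and 1286 CPM in control libraries, against 2235, 2358 and 2337 CPM in proliferation libraries (log2 fold change -0.84, SE 0.05, adjusted p = 7.14e-13). No library crossed between groups in either. The complex I genes mt-Nd4 and mt-Nd3 were picked out after their values had been seen. mt-Nd4 had 1137, 1083 and 1079 CPM in control libraries, against 305, 248 and 276 CPM in proliferation libraries (log2 fold change 1.99). mt-Nd3, the lower member, had 163, 157 and 162 CPM in control libraries, against 291, 353 and 308 CPM in proliferation libraries (log2 fold change -0.98). The pattern held in each complex that had members of both kinds here, though some had few mitochondrial genes. In complex I the medians were 1.81 for 7 mitochondrial and -0.37 for 36 nuclear genes. Complex III had 1 mitochondrial gene, mt-Cytb, at 1.45, and 9 nuclear genes with a median of -0.51. The medians in IV were 1.51 for 3 mitochondrial and -0.34 for 13 nuclear genes. Those in V were 0.73 for 2 mitochondrial and -0.54 for 15 nuclear genes. Among nuclear subunits the muscle forms Cox6a2 and Cox8b were called higher at low levels. Cox6a2 had 1.23 ± 0.287 CPM in control and 0.0877 ± 0.0828 CPM in proliferation, and Cox8b had 1.6 ± 0.249 CPM in control and 0.0453 ± 0.0179 CPM in proliferation. Both proliferation means again lie below the floor, so no fold is given. The regulators of mitochondrial biogenesis Ppargc1a and Tfam were lower, at -1.01 and -0.59. Whether mRNA selection treated mitochondrial transcripts alike in both groups was not tested.

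**Figure D4:**
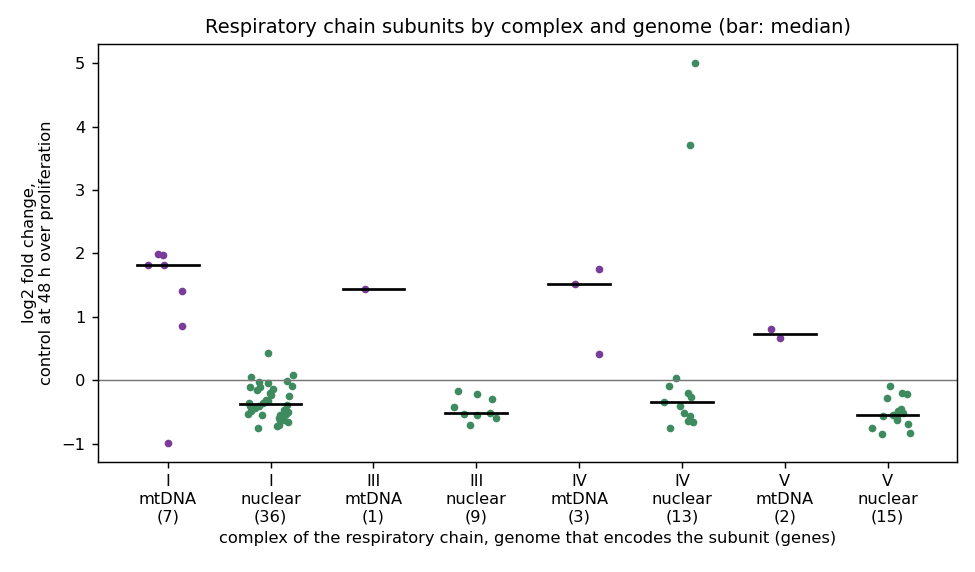
Log2 fold change of control over proliferation (vertical axis) for respiratory chain subunits by complex and by the genome that encodes them, each point a gene and each bar a median, with complexes assigned from gene symbols. Mitochondrial members lie above 0 except mt-Nd3, and nuclear members lie mostly below 0, with Cox6a2 and Cox8b far above it.

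Most genes of the translation apparatus were lower. Of cytosolic ribosomal protein genes 79 of 81 were lower and the rest not called (median log2 fold change -0.62). Mitochondrial ribosomal protein genes had 70 of 76 lower and 1 higher (-0.57), led by Mrps6 with 28.8, 28.5 and 28.2 CPM in control libraries, against 85.1, 102 and 94.2 CPM in proliferation libraries (log2 fold change -1.72, SE 0.06, adjusted p = 9.28e-16). All 20 cytosolic tRNA synthetases tested were lower (-0.92), as were 33 of 37 ribosome biogenesis genes. Among these Myc, which drives ribosome production, had 20.6, 20.4 and 19.9 CPM in control libraries, against 49.5, 39.7 and 40.7 CPM in proliferation libraries (log2 fold change -1.09, SE 0.07, adjusted p = 1.85e-11). Short transcripts were lower in general: the shortest 10% of genes, with at most 1802 bases of exon, had a median of -0.21, and the longest 10% a median of 0.19. With that trend removed, an alternative added after the data were seen, 75 cytosolic and 64 mitochondrial ribosomal protein genes and 48 nuclear respiratory genes were lower, at medians of -0.47, -0.44 and -0.25, and 11 respiratory genes were then higher.

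Genes of amino acid synthesis and other targets of ATF4, the factor of the amino acid response, were lower in 24 of 26 cases and not called in the rest, with a median log2 fold change of -1.61. Asns, asparagine synthetase, had 37.5, 29.96 and 30.2 CPM in control libraries, against 242, 184 and 200.3 CPM in proliferation libraries (log2 fold change -2.68, SE 0.13, adjusted p = 5.95e-09). Cth, an enzyme of cysteine synthesis, had 1.56, 1.29 and 1.73 CPM in control libraries, against 29.4, 14.4 and 18.1 CPM in proliferation libraries (log2 fold change -3.76, SE 0.31, adjusted p = 1.21e-06). Trib3, a feedback inhibitor of ATF4, had 4.55, 4.91 and 4.64 CPM in control libraries, against 95.6, 40.5 and 57.97 CPM in proliferation libraries (log2 fold change -3.79, SE 0.34, adjusted p = 6.1e-06). The control libraries were close together and far below, while proliferation A was the highest of its group for all 3. Slc7a5, which imports large amino acids, had 89.7, 78.6 and 77.9 CPM in control libraries, against 337, 208 and 266 CPM in proliferation libraries (log2 fold change -1.72, SE 0.15, adjusted p = 2.97e-06). The mitochondrial leucyl-tRNA synthetase gene Lars2 was not called (adjusted p = 0.126). It had 2949, 2921 and 3024 CPM in control libraries, against 5039, 2464 and 5284 CPM in proliferation libraries. Proliferation B lay below the control libraries and proliferation A and C above them, and without proliferation B the gene was called lower.

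All but 1 of 31 constitutive proteasome genes were lower (30, median log2 fold change -0.56, or -0.39 with the length trend removed). The catalytic Psmb5 had 68.9, 71.8 and 73.1 CPM in control libraries, against 106, 109 and 108 CPM in proliferation libraries (log2 fold change -0.60, SE 0.05, adjusted p = 1.31e-09). Its interferon-inducible replacement Psmb8 had 5.54, 6.51 and 6.55 CPM in control libraries, against 0.263, 0.223 and 0.197 CPM in proliferation libraries (log2 fold change 4.73, SE 0.25, adjusted p = 2.1e-12). Psmb9 and Psmb10 had log2 fold changes of 2.86 and 1.06. Each group was apart for Psmb5 and Psmb8. Of 12 immunoproteasome and peptide loading genes 11 were higher and 1 lower, although their summed level was 1298 to 1319 CPM in control libraries and 1280 to 1469 CPM in proliferation libraries. Muscle ubiquitin ligases and calpains had 12 of 18 higher and 3 lower, among them Trim63 (MuRF1) with 10.7, 7.66 and 9.13 CPM in control libraries, against 0.526, 0.223 and 0.263 CPM in proliferation libraries (log2 fold change 4.73, SE 0.28, adjusted p = 6.8e-11).

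Interferon-stimulated genes rose, while the interferon beta gene stayed at the limit of detection. Of 44 antiviral effectors 40 were higher and 2 lower (median log2 fold change 3.13). Isg15, a ubiquitin-like modifier, had 20.4, 23.7 and 28.4 CPM in control libraries, against 2.47, 2.49 and 2.27 CPM in proliferation libraries (log2 fold change 3.32, SE 0.21, adjusted p = 7.74e-08). Ifit1, which binds foreign RNA, had 37.8, 46.1 and 56.4 CPM in control libraries, against 2.697, 2.94 and 3.42 CPM in proliferation libraries (log2 fold change 3.94, SE 0.24, adjusted p = 1.91e-07). Bst2, or tetherin, had 73.2, 88.5 and 88.4 CPM in control libraries, against 5.53, 5.696 and 5.196 CPM in proliferation libraries (log2 fold change 3.93, SE 0.15, adjusted p = 1.46e-10). Control A was the lowest control library in all 3, and still lay above every proliferation library. Oas2 had no count in proliferation and 1882 counts over the control libraries, so control lay at least 205.5-fold above the limit set by 3 counts in each library. Ifnb1, the interferon beta gene, had 1 count in the 6 libraries, in control B. The receptors Ifnar1 and Ifnar2 rose little, by 0.22 and 0.35.

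Transcription factors of the pathway rose by different amounts, with Stat2 at 1.14, Irf9 at 2.56 and Irf7 at 4.52 on the log2 scale. Irf7 had 21.9, 27.4 and 26.6 CPM in control libraries, against 0.987, 0.745 and 1.51 CPM in proliferation libraries (log2 fold change 4.52, SE 0.26, adjusted p = 5.28e-08). Usp18, a deISGylase that restrains the receptor, had 13.96, 16.96 and 18.4 CPM in control libraries, against 0.263, 0.0745 and 0.132 CPM in proliferation libraries (log2 fold change 6.64, SE 0.31, adjusted p = 2.85e-10), its log2 fold change being 7.23 without proliferation A. Sensors of RNA, Ifih1 and Ddx58, rose (1.98 and 2.13), whereas the DNA sensor Mb21d1 (cGAS) fell, with 5.69, 4.77 and 6.62 CPM in control libraries, against 8.09, 9.94 and 8.09 CPM in proliferation libraries (log2 fold change -0.61, SE 0.11, adjusted p = 4.76e-05). Its adaptor Tmem173 (STING) was not called at 28.98 ± 1.76 CPM in control and 28.9 ± 1.47 CPM in proliferation (adjusted p = 0.998). Ifitm1, an antiviral membrane protein, went the other way from its list, with 10.2, 11.1 and 10.3 CPM in control libraries, against 30.4, 27.96 and 29.9 CPM in proliferation libraries (log2 fold change -1.48, SE 0.10, adjusted p = 7.21e-11). Of 18 NF-kB inflammatory genes 7 were higher and 5 lower, with the chemokines Ccl5 higher (3.90) and Ccl2 lower (-1.55). Macrophage markers summed to 8.66 to 9.75 CPM in control libraries and 14.5 to 15.4 CPM in proliferation libraries, and the part of other cell types in the interferon genes was not tested.

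**Figure D5:**
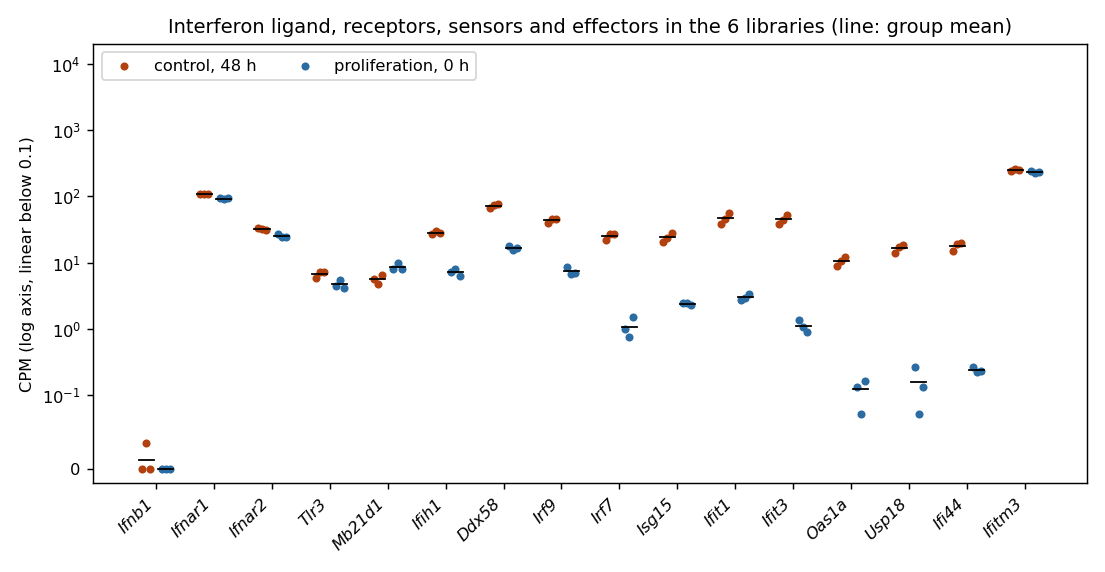
CPM of the interferon beta gene, receptors, sensors, transcription factors and antiviral effectors in the 3 control libraries (left, orange) and the 3 proliferation libraries (right, blue), on a log axis that is linear below 0.1, with the group mean as a line. Ifnb1 lies at 0 in 5 of 6 libraries, while Irf7, Isg15, Ifit1, Ifit3, Oas1a, Usp18 and Ifi44 are apart between groups.

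Of 27 collagen chains 24 were higher and 3 lower (median log2 fold change 1.47). Col3a1 had 5984, 5963 and 5947 CPM in control libraries, against 3347, 2683 and 3065 CPM in proliferation libraries (log2 fold change 0.98, SE 0.06, adjusted p = 1.02e-11). Col1a1 had 1819, 1840 and 1781 CPM in control libraries, against 562, 421 and 497 CPM in proliferation libraries (log2 fold change 1.88, SE 0.07, adjusted p = 2.59e-14). The network and transmembrane chains Col8a2 and Col23a1 had the largest rises. Col8a2 had 20.1 ± 1.08 CPM in control and 0.694 ± 0.206 CPM in proliferation (log2 fold change 4.87, SE 0.16, adjusted p = 6.25e-16). Col23a1 had 13.4 ± 0.965 CPM in control and 0.437 ± 0.0983 CPM in proliferation (log2 fold change 4.93, SE 0.17, adjusted p = 4.19e-16). Col18a1, the basement membrane chain that releases endostatin, had 256, 284 and 292 CPM in control libraries, against 524, 458 and 509 CPM in proliferation libraries (log2 fold change -0.84, SE 0.06, adjusted p = 1.06e-10). Per kilobase it made up 1.99 ± 0.146% in control and 7.68 ± 0.335% in proliferation of collagen reads. Fn1, fibronectin, had 8512, 8568 and 8399 CPM in control libraries, against 6095, 4062 and 5064 CPM in proliferation libraries (log2 fold change 0.74, SE 0.11, adjusted p = 7.58e-05), with a wide range in proliferation but no overlap. Among proteoglycans and basement membrane genes 22 of 28 were higher and 3 lower. Prelp, a leucine-rich proteoglycan, had 52.4, 47.2 and 42.1 CPM in control libraries, against 1.05, 0.707 and 1.02 CPM in proliferation libraries (log2 fold change 5.66, SE 0.18, adjusted p = 2.66e-13). The basement membrane linker Nid1 fell, with 578, 566 and 568 CPM in control libraries, against 1241, 1119 and 1228 CPM in proliferation libraries (log2 fold change -1.07, SE 0.05, adjusted p = 2.22e-13).

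Receptors and proteases of the matrix shifted as well. Itga11, the alpha chain of a collagen receptor, had 36.5, 39.5 and 33.9 CPM in control libraries, against 1.15, 0.893 and 0.855 CPM in proliferation libraries (log2 fold change 5.23, SE 0.17, adjusted p = 9.31e-14). Itgb7, a chain known from lymphocytes, had 2.25, 1.602 and 1.798 CPM in control libraries, against 23.9, 20.2 and 25.1 CPM in proliferation libraries (log2 fold change -3.60, SE 0.12, adjusted p = 5.42e-16). Itga7, the laminin receptor chain of muscle, was abundant in both groups and had 1045, 1024 and 1009 CPM in control libraries, against 698, 574 and 666 CPM in proliferation libraries (log2 fold change 0.67, SE 0.07, adjusted p = 2.31e-08). Each of these groups was apart, and over all 17 integrin chains 10 were higher and 6 lower. Of 31 proteases and inhibitors 23 were higher and 7 lower. Adamts4, which cleaves proteoglycans, had 374, 358 and 356 CPM in control libraries, against 31.6, 30.5 and 32.1 CPM in proliferation libraries (log2 fold change 3.53, SE 0.07, adjusted p = 2.29e-19). The surface protease gene Adam8 and the urokinase receptor gene Plaur were among those that fell, and had log2 fold changes of -2.15 and -1.73.

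Insulin-like growth factors, the autocrine signals of differentiating myoblasts, were among the strongest risers. Igf1 had 50.8, 45 and 40.9 CPM in control libraries, against 1.25, 0.968 and 1.15 CPM in proliferation libraries (log2 fold change 5.33, SE 0.18, adjusted p = 2.18e-12). Igf2 had 94.5, 71.7 and 67.1 CPM in control libraries, against 1.74, 1.42 and 1.64 CPM in proliferation libraries (log2 fold change 5.59, SE 0.22, adjusted p = 2.2e-09). Control A was highest for both. The binding proteins diverged: Igfbp3 rose (2.16) and Igfbp5 fell, with 1585, 1571 and 1537 CPM in control libraries, against 2830, 2109 and 2490 CPM in proliferation libraries (log2 fold change -0.66, SE 0.08, adjusted p = 4.53e-07). In the list, 11 of 16 were higher and 3 lower. Igf2 shares an imprinted locus with the noncoding gene H19, which had 4545, 4130 and 4022 CPM in control libraries, against 729.8, 658 and 680 CPM in proliferation libraries (log2 fold change 2.62, SE 0.09, adjusted p = 1.95e-12). Mest, an imprinted gene of the alpha/beta hydrolase family, had 142, 155 and 143 CPM in control libraries, against 21.3, 22.4 and 23.5 CPM in proliferation libraries (log2 fold change 2.71, SE 0.06, adjusted p = 3.58e-19). Of 19 imprinted genes 14 were higher and 1 lower, but the Dlk1 and Meg3 locus was silent at this depth, with 0 counts of Dlk1 in 6 libraries and 2 of Meg3, both in proliferation.

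In the TGF-beta, activin and BMP list 25 of 36 were higher and 5 lower. Fst, follistatin, which neutralises activin and myostatin, had 39.8, 27.9 and 30.5 CPM in control libraries, against 1.15, 1.005 and 1.12 CPM in proliferation libraries (log2 fold change 4.90, SE 0.29, adjusted p = 9.5e-08). Bmp4 had 24.5, 23.6 and 22.3 CPM in control libraries, against 1.05, 1.53 and 1.61 CPM in proliferation libraries (log2 fold change 4.07, SE 0.11, adjusted p = 2.37e-17). Grem1, a BMP antagonist, had 114, 111 and 111 CPM in control libraries, against 380.1, 338 and 347 CPM in proliferation libraries (log2 fold change -1.67, SE 0.07, adjusted p = 1.78e-14). All 3 had groups apart. Myostatin (Mstn) was below the filter, at 0.0719 CPM or less in each library.

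Of 16 Notch pathway genes 11 were higher and 3 lower. The ligand Dll1 had 36.98, 35.2 and 34.02 CPM in control libraries, against 4.54, 2.75 and 4.28 CPM in proliferation libraries (log2 fold change 3.19, SE 0.13, adjusted p = 2.34e-13). Jag2, another ligand, had 22.6, 24.6 and 25.5 CPM in control libraries, against 49.8, 43.3 and 50.5 CPM in proliferation libraries (log2 fold change -0.99, SE 0.07, adjusted p = 2.56e-11). Of 34 Wnt pathway genes 21 were higher and 6 lower. Axin2, a feedback target of beta-catenin, had 7.61, 7.38 and 6.94 CPM in control libraries, against 0.461, 0.447 and 0.756 CPM in proliferation libraries (log2 fold change 3.70, SE 0.15, adjusted p = 4.77e-15). The ligand Wnt9a had 53.01, 49.9 and 48.95 CPM in control libraries, against 9.93, 9.34 and 8.94 CPM in proliferation libraries (log2 fold change 2.43, SE 0.07, adjusted p = 3.91e-17). Against these, the modulator Dkk2 had 3.06, 3.48 and 2.84 CPM in control libraries, against 19.5, 23.3 and 21.4 CPM in proliferation libraries (log2 fold change -2.77, SE 0.10, adjusted p = 9.3e-16). The R-spondin receptor Lgr6 had 3.75, 3.87 and 5.11 CPM in control libraries, against 23.6, 23.5 and 23.8 CPM in proliferation libraries (log2 fold change -2.49, SE 0.11, adjusted p = 1.3e-14). In every one of these 6 genes the lowest library of the higher group exceeded the highest of the lower group, as in 79.2% of all genes tested.

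Of 22 genes of fibroblast growth factors and receptor tyrosine kinases 13 were higher and 7 lower. Hgf, the ligand of Met and an activator of satellite cells, had 26.8, 25.5 and 26.4 CPM in control libraries, against 99.8, 97.7 and 93.2 CPM in proliferation libraries (log2 fold change -1.89, SE 0.05, adjusted p = 1.33e-17). Met had a log2 fold change of -0.52. Fgfr4, the fibroblast growth factor receptor of myogenic cells, had 17.1, 18.5 and 19.03 CPM in control libraries, against 4.57, 4.47 and 4.28 CPM in proliferation libraries (log2 fold change 2.03, SE 0.09, adjusted p = 2.78e-14). Among feedback genes and targets of ERK, Dusp4, Spry4, Etv4 and Fosl1 fell, with log2 fold changes of -1.20, -0.99, -1.66 and -2.37, whereas Spry1 and Fos rose, by 1.86 and 2.0. Fosl1, an AP-1 subunit, had 6.98, 7.698 and 6.402 CPM in control libraries, against 32.6, 37.1 and 39.2 CPM in proliferation libraries (log2 fold change -2.37, SE 0.09, adjusted p = 2.12e-15). Fos had 7.22, 5.82 and 7.301 CPM in control libraries, against 1.48, 1.64 and 1.94 CPM in proliferation libraries (log2 fold change 2.0, SE 0.14, adjusted p = 3.74e-11), so these AP-1 subunits were apart between groups in opposite directions. The ERK feedback and immediate early list had 10 of 26 higher and 12 lower, near the shares over all genes. Of 18 targets of serum response factor and YAP, 16 rose and 1 fell, with Srf itself at 83.1 ± 1.18 CPM in control and 53.5 ± 2.995 CPM in proliferation (log2 fold change 0.63, SE 0.06, adjusted p = 1.85e-09). Ctgf, a YAP target, had 226 ± 19.4 CPM in control and 85.5 ± 5.97 CPM in proliferation (log2 fold change 1.40, SE 0.07, adjusted p = 2.59e-13).

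Genes of RNA-binding proteins of muscle splicing were called at shares near those of all genes, with 9 of 23 higher and 10 lower. Rbm24, which promotes inclusion of muscle exons, had 46.4, 39.95 and 39.7 CPM in control libraries, against 3.55, 2.83 and 2.66 CPM in proliferation libraries (log2 fold change 3.80, SE 0.15, adjusted p = 1.63e-11). Ptbp1, which represses such exons, had 180.1, 191 and 190 CPM in control libraries, against 290.2, 304 and 320.3 CPM in proliferation libraries (log2 fold change -0.71, SE 0.05, adjusted p = 2.9e-11). Among chromatin genes the Polycomb methyltransferases also diverged. Ezh1 had 82.6, 82.8 and 81.8 CPM in control libraries, against 46.7, 38.8 and 39.8 CPM in proliferation libraries (log2 fold change 0.98, SE 0.06, adjusted p = 2.6e-12). Ezh2 had 35.9, 37.5 and 38.02 CPM in control libraries, against 88.3, 100.4 and 90.3 CPM in proliferation libraries (log2 fold change -1.32, SE 0.06, adjusted p = 1.51e-14). Hmga1, an architectural protein of proliferating cells, had 10.97, 11.2 and 10.2 CPM in control libraries, against 91.3, 98.6 and 87.1 CPM in proliferation libraries (log2 fold change -3.09, SE 0.06, adjusted p = 3.58e-19), the largest fall of its list, and Hmga2 fell too (-1.81). Of all 31 chromatin genes 13 were higher and 15 lower. The lamin gene Lmnb1, which proliferating cells express, had 51.3, 58.2 and 58.5 CPM in control libraries, against 149.5, 181 and 166 CPM in proliferation libraries (log2 fold change -1.56, SE 0.06, adjusted p = 7.11e-15). In the antioxidant list 15 of 24 were lower and 5 higher, with Nqo1, a quinone reductase induced by NRF2, at 10.3 ± 1.17 CPM in control and 60.2 ± 7.65 CPM in proliferation (log2 fold change -2.55, SE 0.10, adjusted p = 3.63e-13). Selenoprotein P, listed as Sepp1, had 181 ± 3.14 CPM in control and 33.9 ± 2.14 CPM in proliferation (log2 fold change 2.42, SE 0.06, adjusted p = 1.79e-18).

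Among the strongest falls over all genes were some of intermediate filament genes, a family with no list of its own here. The neurofilament gene Nefl had 10.3, 11.3 and 12.2 CPM in control libraries, against 214, 266 and 253 CPM in proliferation libraries (log2 fold change -4.44, SE 0.15, adjusted p = 2.63e-10). Its partner Nefm had 6.17, 5.78 and 6.58 CPM in control libraries, against 51.8, 66.2 and 66.6 CPM in proliferation libraries (log2 fold change -3.31, SE 0.10, adjusted p = 2.22e-16). Krt19, a keratin gene that muscle fibres also use, had 3.03, 3.52 and 3.06 CPM in control libraries, against 31.3, 29.4 and 32.1 CPM in proliferation libraries (log2 fold change -3.27, SE 0.12, adjusted p = 1.96e-14). Vim, the vimentin gene, fell less (-0.75), and the desmin gene Des rose slightly (0.13), a call lost without control A, control B, proliferation B or all libraries of letter B. For Nefl, Nefm and Krt19 control libraries lay below 13 CPM, and no proliferation library lay below 29 CPM. Of 13 tested Hox genes of the A and B clusters 4 were higher and 3 lower. In the satellite and reserve cell list 16 of 19 were higher and 3 lower, and it shares Pax7, Cdkn1c, Fgfr4 and Spry1 with the lists above.

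Markers of other cell types were examined for the composition of the cultures. The 10 myotube markers, all higher, summed to 2590 to 3104 CPM in control libraries and 45.4 to 63.9 CPM in proliferation libraries. Smooth muscle markers, 6 of 6 higher, summed to 4694 to 4906 CPM in control libraries and 1777 to 1901 CPM in proliferation libraries, and Acta2, Tagln and Cnn1 among them are known in differentiating myoblasts too. Fibroblast markers summed to 29.5 to 30.8 CPM in control libraries and 18.4 to 21.3 CPM in proliferation libraries, with 4 of 5 higher. Osteoblast markers summed to 1165 to 1217 CPM in control libraries and 7068 to 7449 CPM in proliferation libraries, with 4 of 5 lower, nearly all of it Spp1. Endothelial markers summed to 2.58 to 2.91 CPM in control libraries and 0.625 to 0.921 CPM in proliferation libraries and adipocyte markers to 29.8 to 31.8 CPM in control libraries and 29.8 to 32.4 CPM in proliferation libraries. Chondrocyte markers summed to 63.98 to 67.7 CPM in control libraries and 78.9 to 82.2 CPM in proliferation libraries, and Schwann cell and neural markers to 72.1 to 77.9 CPM in control libraries and 92.5 to 100.5 CPM in proliferation libraries. The part of such cells in the results above was not tested.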

How the data were processed

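The values used are raw counts per gene symbol, in the table the authors deposited for 12 libraries. CASAVA, DESeq2 and the mm10 build are named in the submitters' processing notes, and whether counting used strand or split paralogs is not given in the sources used here. The table had 0 columns without a sample label, and the authors' comparison tables were not used. Counts were fitted in R 4.3.3 with edgeR 4.0.16 (limma 3.58.1): filterByExpr, TMM scaling, 4 group means over the 12 libraries (8 residual degrees of freedom), robust quasi-likelihood F tests of control over proliferation and Benjamini-Hochberg adjustment over 12736 genes. SEs were derived from the log2 fold change and its F value. CPM use TMM-scaled totals. Levels per length use the exon bases of GENCODE M21 on GRCm38. On simulated counts with 12571 genes per step, 93.2% of 1.5-fold and 100% of 2-fold and 4-fold changes were recovered, with 11 false calls. The simulation gave every gene and library the same coefficient of variation, 0.05, and changed only genes above a low level. The real proliferation libraries varied more among themselves than the control libraries, so these rates may not hold for this comparison.

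The groups, gene lists, pairs and promoters were chosen with earlier results of these data known. Named genes were core members of a list, members of a pair, up to 3 called risers and 3 called fallers of each list at 5 CPM or more, the 15 strongest changes each way at 20 CPM or more, and the 10 most abundant genes, gains and losses. Bub3, Ccnb2, Clcn1, Hist1h1b, Hist1h1d, Hist1h1e, Hist1h2bk, mt-Nd3 and mt-Nd4 lie outside this rule and were chosen after their values were seen. Alternatives were another scaling, no filter, DESeq2 1.42.0, only the 6 libraries, a block for the replicate letter, leaving libraries out, and removal of a length trend. Promoter windows came from RefSeq on GRCm38.p6.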

Additional observations from a re-analysis of the deposited data

How the results depend on the processing

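The 9836 calls became 8582 to 10086 over 16 alternatives. The lowest number came without all libraries of letter C and the highest with no filter. Leaving libraries out gave 8582 to 9785 calls, with 4295 to 4909 higher and 4287 to 4897 lower. DESeq2's Wald test kept 94.9% of the calls, library totals kept 97.5% and removal of the length trend kept 92.1%, and the share of higher genes among the calls moved from 49.7% to between 49.3% and 52.9%. Libraries of one letter did not deviate together (correlations 0.0285, -0.0797 and 0.0174), so the letters were not taken as pairs. With the replicate block 9897 genes were called, 4917 higher and 4980 lower, and 99.6% of the calls were kept. For each of 77 lists, the members called in its more frequent direction were counted again. Of 1232 such recomputed counts, 25 moved by over 1.5 times, all in lists with at most 4 such members. Non-muscle and smooth muscle myosin heavy chains, 2 higher in the main test, had 1 higher with DESeq2's Wald test and 1 to 2 when libraries were left out. Hox genes of the C and D clusters, 4 higher, had 2 (without all libraries of letter C) to 5 (without proliferation A) when libraries were left out and 7 with the length trend removed. Adipocyte markers, 2 higher, had 1 with DESeq2's Wald test and 1 to 2 when libraries were left out. Macrophage markers, 1 higher, had 2 with DESeq2 size factors, library totals, no filter, DESeq2's Wald test, the replicate block or the length trend removed, and 1 to 2 when libraries were left out. The cause was not tested. For 193 named genes, 3055 of 3084 recomputed results kept their direction and side of the threshold, 22 lost the call and 7 gained it and no direction was reversed. A gene with under 3 counts per library could not be told from absence at this depth.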
